A study of Rattus norvegicus with 23 samples.

Results

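The 4 genes described here encode the myosin heavy chains and the striated-muscle actins of the heart: Myh6 (ENSRNOG00000025757), Myh7 (ENSRNOG00000016983), Acta1 (ENSRNOG00000017786) and Actc1 (ENSRNOG00000008536). They were chosen by identifier as the ventricular myosin heavy chain pair and the alpha-actin pair, and they are 4 of the 26405 genes in each count file and 4 of the 11568 genes that passed the filter on low counts. RNA-seq was done on the heart apex of 23 Lewis rats, with 1 library per rat, 6 weeks after a kidney transplant between rats of this inbred strain. The donor of the kidney, the recipient, both or neither had chronic kidney disease (CKD). The design thus crosses the disease of the transplanted kidney with that of the animal that carries it.

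The 4 groups were healthy donor to healthy recipient (HD-HR, 6 rats), CKD donor to healthy recipient (CD-HR, 6 rats), healthy donor to CKD recipient (HD-CR, 5 rats) and CKD donor to CKD recipient (CD-CR, 6 rats). CKD had been induced by ablating part of the renal mass on both sides, followed by the nitric oxide synthase inhibitor L-NNA at 200 mg/L in drinking water and chow with 6% NaCl, both stopped once proteinuria reached 200 mg/24 h. Diseased rats entered the transplantation protocol at 100 mg/24 h without L-NNA and without the added salt, and healthy rats had intact kidneys. Every recipient, healthy ones included, received a left kidney in place of its own and had its native right kidney taken out 10 to 14 days after surgery, so all 4 groups lived on the graft alone thereafter. The hearts thus differ in what the recipient went through before the transplant (disease, L-NNA and salt, which cannot be told apart) and in the kidney it received. The first digits of the deposited rat names also divide almost along recipient disease, as given further below. The labels state an ischemia time of 30 minutes for every rat and give no ages. P-values for group differences set the difference against the spread between these rats.

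Myosin heavy chain is the motor of the thick filament, and adult heart muscle carries an alpha form, encoded by Myh6, and a beta form, encoded by Myh7. The alpha form hydrolyses ATP faster and predominates in the ventricle of adult rodents, whereas the beta form is slower, more economical and predominates before birth. Alpha-actin forms the thin filament on which myosin pulls; Actc1 encodes the cardiac form and Acta1 the skeletal muscle form, which the rodent heart expresses around birth. A shift from Myh6 to Myh7 and a rise of Acta1 are textbook components of the fetal gene programme of the loaded or diseased rodent heart.

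Both myosin genes lie next to each other on rat chromosome 15, with 0 protein-coding genes annotated between them, and each holds a microRNA. These microRNAs are shown because they mark the common origin of the gene pair: their mature forms, given 5′ to 3′ with the seed (bases 2 to 8) in capitals, have the same seed. They were not measured here, since libraries were made from polyadenylated RNA. Sequences and positions in this and the next paragraph are from RefSeq, build GRCr8, and are separate from the counts, which used another build.
rno-miR-208a-3p, in Myh6, chr15:32395568-32395585, minus strand: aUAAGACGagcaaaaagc
rno-miR-208b-3p, in Myh7, chr15:32421648-32421665, minus strand: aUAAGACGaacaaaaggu

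The 2 actin genes are on separate chromosomes and encode nearly the same protein, and their promoters are shown as background. Whether promoter sequence bears on their levels in these rats was not tested. Each sequence is the 250 bases before the annotated start site, and capitals mark matches to the motifs searched on both strands. The motifs were the CArG box (the site of serum response factor), CATTCC (the core of the M-CAT element, bound by TEAD factors) and TATAAA (the core promoter element bound by TBP).
Acta1, chr19:68784195-68784444, minus strand: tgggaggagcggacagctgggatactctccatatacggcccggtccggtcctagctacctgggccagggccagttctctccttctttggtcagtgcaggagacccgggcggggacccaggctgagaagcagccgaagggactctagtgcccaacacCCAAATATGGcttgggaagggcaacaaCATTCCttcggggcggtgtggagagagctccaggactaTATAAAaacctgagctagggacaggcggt
Actc1, chr3:121271828-121272077, minus strand: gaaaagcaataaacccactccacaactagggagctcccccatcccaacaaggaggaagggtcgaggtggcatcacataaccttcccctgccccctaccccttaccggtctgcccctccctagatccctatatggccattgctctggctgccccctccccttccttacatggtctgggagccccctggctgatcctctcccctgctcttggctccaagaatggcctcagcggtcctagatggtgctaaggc
In Acta1 the CArG box began 94 bases, CATTCC 67 bases and TATAAA 29 bases before the start site. The Actc1 window held no exact match to any of these motifs. Near matches to the CArG box, such as ccctatatgg in Actc1 and ccatatacgg in Acta1, were not counted. Among 33469 promoter windows, each likewise the 250 bases before a start site, 1.5% held a CArG box, 12.1% CATTCC and 12.9% TATAAA. The Myh6 window held 1 CATTCC, and the Myh7 window held no match to any of the 3. The start site used for Myh6 and Myh7 was not the outermost annotated start of the gene, whereas for Acta1 and Actc1 it was. A match is a run of letters and not a measured binding site.

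All 4 genes were among the abundant transcripts of the apex, and together they took 1.40 to 2.77% of the counts in genes. Levels are given as CPM, read counts brought to a common library size by TMM scaling, a unit suited to comparing a gene between rats. Ranked by mean CPM over the 23 libraries, Myh6 was 12, Actc1 13, Myh7 17 and Acta1 50. Gene length was not corrected, so apart from such ranks CPM of different genes are not compared. Totals were 7391929 to 12444980 counts in genes per library, so counting error was small beside the spread between rats. Myh6 and Actc1, which mark heart muscle, were abundant in every library; other cell types were not checked by markers because the files name genes by identifier only. In a tissue sample, fewer cardiomyocytes and less of a transcript per cardiomyocyte cannot be told apart.

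Myh6 was lower in hearts of CKD recipients, whichever kidney they had received. In HD-HR its level ran from 10035 CPM, through a median of 10917, to 12488 (mean 11113 ± 894, SD, n = 6). In CD-HR the lowest was 6402, the median 10295 and the highest 13138 (10171 ± 2408, n = 6). In HD-CR the 5 rats had 6955, 5299, 7492, 4696 and 4464 CPM (5781 ± 1365). CD-CR was the most scattered group: its lowest rat, CD-CR1, had 1553 CPM, the median was 6193 and the highest rat, CD-CR5, had 8538 (5532 ± 2874, n = 6). Every HD-HR heart exceeded every HD-CR and every CD-CR heart. Taking donors together, all 4 genes overlapped between healthy and CKD recipients, and 0.0778% of all genes did not. For Myh6, of the 12 healthy recipients, 11 lay above all 11 CKD recipients; the exception was CD-HR1, at 6402 CPM.

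Myh7 followed the opposite pattern. Its level in HD-HR was 1669 CPM at the lowest, 2077 at the median and 3230 at the highest (2253 ± 580, n = 6). CD-HR ran from 1438 through a median of 2375 to 6839 (3065 ± 2054, n = 6). The HD-CR rats had 4538, 7441, 4515, 4994 and 4297 CPM (5157 ± 1302, n = 5), so 4 of them were close together and HD-CR2 was high. CD-CR ran from 3988 through a median of 6274 to 6810 (5881 ± 1136, n = 6). Again 11 of the 12 healthy recipients lay on one side, below all 11 CKD recipients, and again the exception was CD-HR1, whose 6839 CPM was higher than any CD-CR value. CD-HR1 was therefore the healthy recipient with the least Myh6 and the most Myh7.

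**Figure D1:**
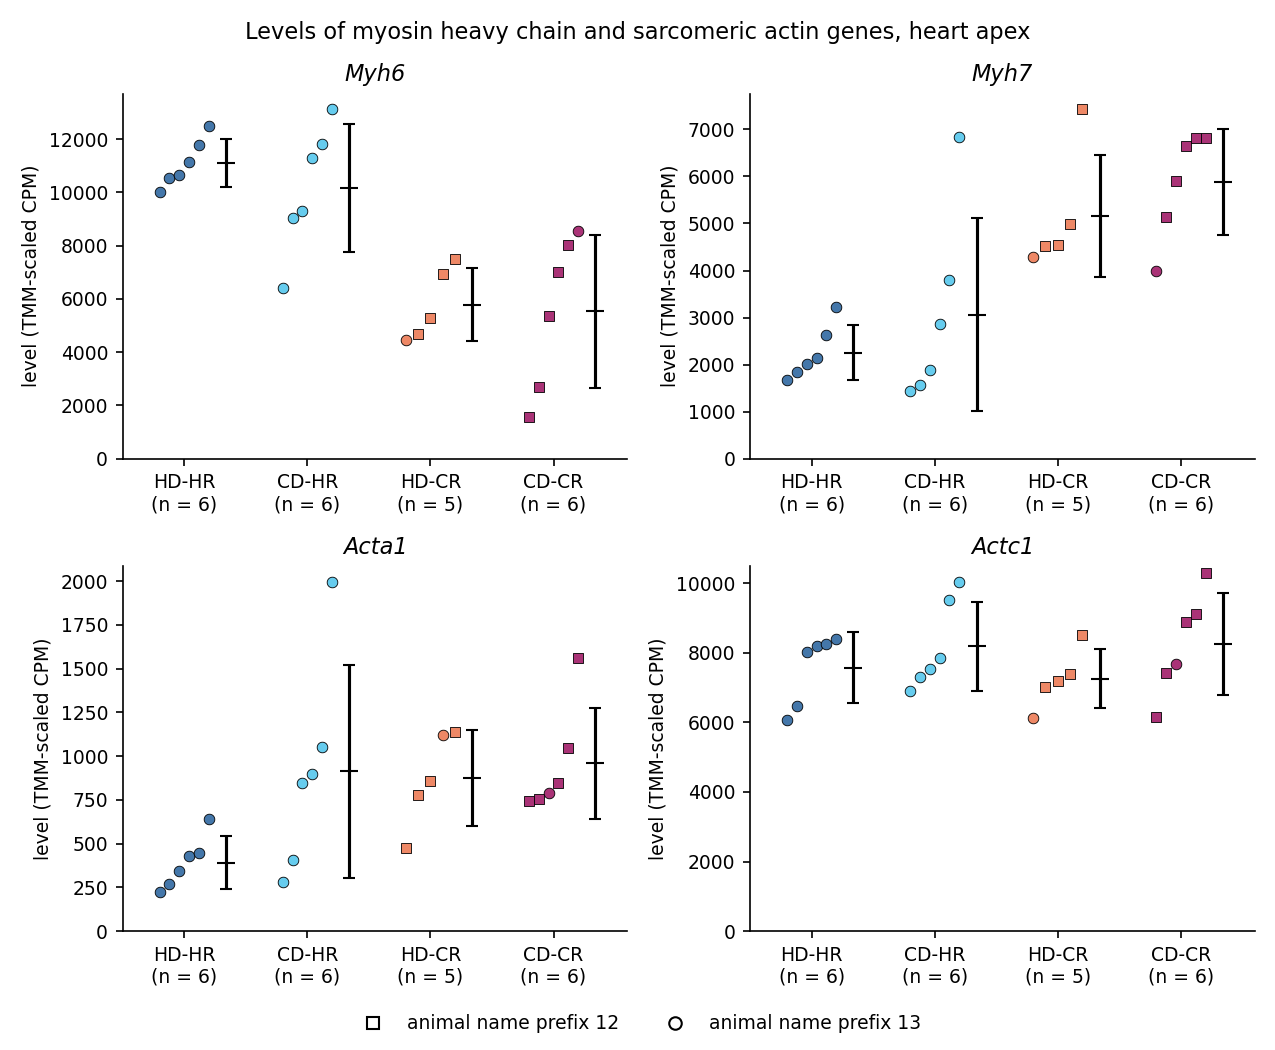
TMM-scaled CPM (vertical axes, one panel per gene) of Myh6, Myh7, Acta1 and Actc1 in each rat by group; squares are rats whose deposited name begins with 12, circles those beginning with 13, and bars are mean ± SD. Myh6 is low and Myh7 high in nearly all CKD recipients, with CD-HR1 (Myh6 6402 CPM, Myh7 6839 CPM) the healthy recipient among them, while the Actc1 groups overlap throughout.

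Recipient disease was tested by the mean of its effects with each kind of donor kidney, in 1 edgeR quasi-likelihood fit of all genes. Myh6 fell by 0.91 ± 0.21 (SE) on the log2 scale, to 0.532 of its level (edgeR adjusted p = 0.00774), and Myh7 rose by 1.07 ± 0.21, or 2.10-fold (edgeR adjusted p = 0.00318). Thus 2 of the 4 genes were called at an adjusted p under 0.05, against 12.8% of the 11568 genes tested (6.73% lower and 6.09% higher). The median log2 change over all genes tested was -0.01. With each donor kidney taken separately the sizes were much the same but the calls were not made: Myh6 changed by -0.94 with a healthy donor kidney (edgeR adjusted p = 0.119) and -0.88 with a CKD donor kidney (0.105), and Myh7 by 1.19 (0.0674) and 0.94 (0.0938). In those comparisons 0.614% and 1.56% of genes were called, shares that depended on single rats: 5 to 89 genes were called with a healthy and 48 to 359 with a CKD donor kidney when 1 rat was left out, against 71 and 181 with all. Whether these 4 changes passed depended on the fit. With only the compared groups in the edgeR fit, both genes passed with a healthy donor kidney (adjusted p = 0.00274 for each, 2.73% of genes called) and neither with a CKD donor kidney (0.273 for Myh6 and 0.239 for Myh7, 0.298% called). DESeq2 called both genes with a healthy donor kidney (adjusted p = 0.0498 for Myh6 and 0.0319 for Myh7, 2.24% of genes called) and Myh6 with a CKD donor kidney (0.0378, 3.88% called). By limma-voom Myh7 passed with a CKD donor kidney (adjusted p = 0.0371, 1.42% of genes called). Without CD-HR1, Myh7 was called with a CKD donor kidney as well (log2 change 1.35, edgeR adjusted p = 0.00378).

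For the same comparisons, groups that did not overlap were counted. Between HD-HR and HD-CR, Myh6 and Myh7 did not overlap, which held for 3.59% of all genes. Between HD-HR and CD-CR, Myh6, Myh7 and Acta1 did not overlap, against 2.9% of all genes. That contrast of disease in both animals with disease in neither also gave calls: Myh7 rose by 1.38 ± 0.30 (edgeR adjusted p = 0.00965) and Myh6 fell by 1.01 ± 0.28 (edgeR adjusted p = 0.0469), with 3.65% of genes called. Myh7 was not called without TMM scaling (1.35, edgeR adjusted p = 0.0701). Leaving out single rats (any of the 6 HD-HR rats, CD-CR2 or CD-CR6) ended the Myh6 call, with an edgeR adjusted p of up to 0.106, as did fitting without the filter on low counts (0.0885) or with only these groups (0.129). With the first digits of the deposited animal names (12 or 13) as a term, neither gene was called (Myh6 -0.80, edgeR adjusted p = 0.454; Myh7 0.96, 0.371).

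For disease of the donor, neither myosin gene passed the test. Averaged over recipients, the donor changes were -0.10 for Myh6 (95% interval -0.51 to 0.32, edgeR adjusted p = 0.892) and 0.32 for Myh7 (-0.12 to 0.75, edgeR adjusted p = 0.559). A p above the threshold does not show equal levels, and the Myh7 interval reaches up to 0.75. Without CD-HR1 the Myh7 difference was 0.11. By edgeR 0% of genes were called for this comparison; 12.8% had an unadjusted p under 0.05, DESeq2 called 226 genes and limma-voom 0.

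**Figure D2:**
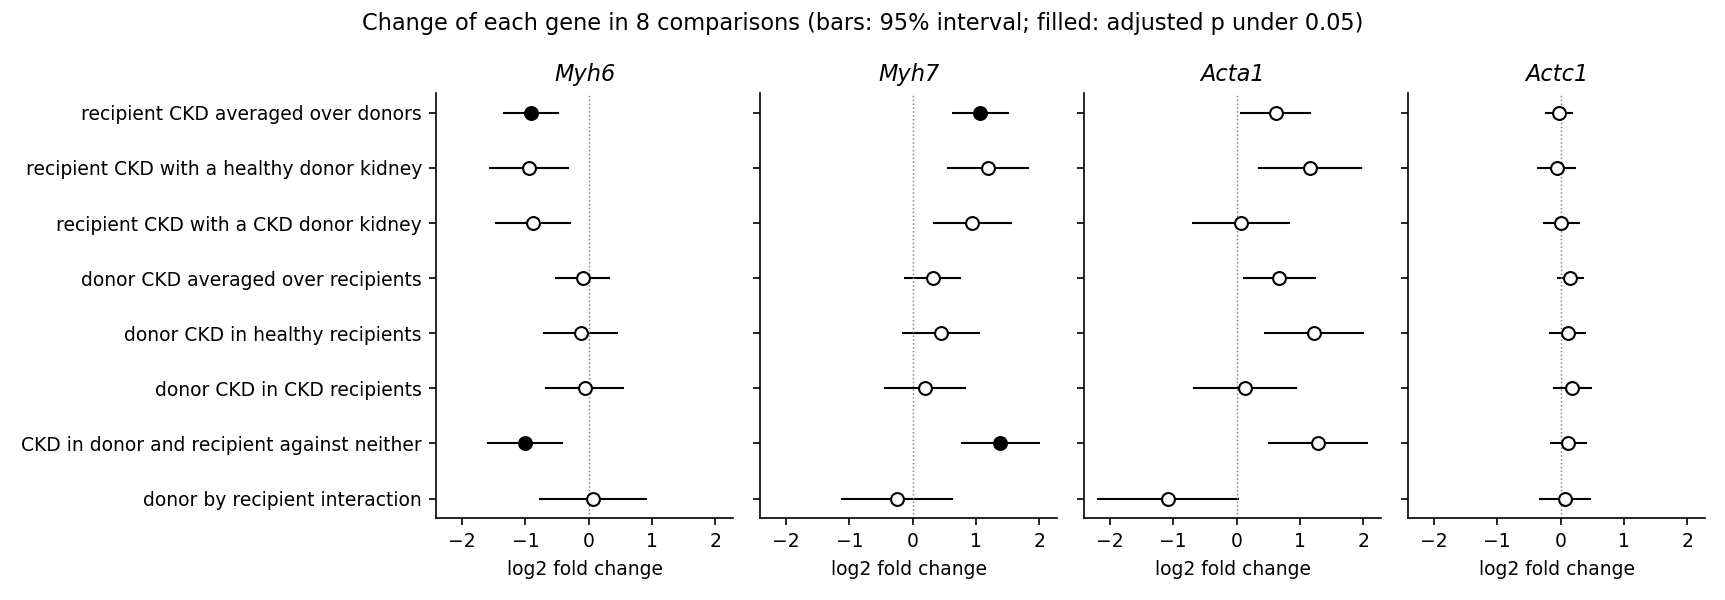
Log2 fold change (horizontal axis) of each gene in the 8 comparisons, with 95% intervals; filled points have an edgeR adjusted p under 0.05. Myh6 lies to the left and Myh7 to the right in every recipient comparison, and Actc1 stays near 0.

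The Myh7 to Myh6 ratio combines the 2 genes within each rat, so it does not depend on library scaling. It is given as log2 of the Myh7 count over the Myh6 count, uncorrected for length. In HD-HR it ran from -2.77 through a median of -2.39 to -1.87 (-2.34 ± 0.38, SD, n = 6). CD-HR had nearly the same median, -2.16, but a wide range from -3.19 to 0.10 (-1.93 ± 1.23, n = 6). In HD-CR the 5 rats had -0.62, 0.49, -0.73, 0.09 and -0.05 (-0.16 ± 0.51). CD-CR ran from -1.10 through 0.05 to 2.13 (0.30 ± 1.23, n = 6). In these units 0 means as many Myh7 as Myh6 counts; 5 of 11 CKD recipients exceeded it and 1 of 12 healthy recipients, CD-HR1, did. Expressed as the share of Myh7 in the summed counts of the pair, the group means were 16.8 ± 3.66% in HD-HR, 23.4 ± 15.7% in CD-HR, 47.2 ± 8.65% in HD-CR and 54.2 ± 19.1% in CD-CR. At the extremes, CD-HR4 had 9.86% Myh7 and CD-CR1 81.4%.

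With recipient CKD the log2 ratio rose by 2.20 ± 0.38 (SE), or 4.58-fold, averaged over donors (two-sided exact permutation test within donor kind, p = 2.81e-05, Benjamini-Hochberg adjusted over 14 ratio tests 0.000394). The rise was 2.17 with a healthy donor kidney (exact permutation p = 0.00216, the smallest 6 against 5 rats can give, adjusted 0.00758) and 2.22 with a CKD donor kidney (exact permutation p = 0.0152, adjusted 0.0303). The latter call was lost on leaving out any 1 of CD-CR1, CD-CR6, CD-HR3, CD-HR6, CD-HR5 and CD-HR4, with differences of 1.86 to 2.28 and an adjusted p of up to 0.0606. Donor CKD changed the ratio by 0.41 in healthy and 0.46 in CKD recipients, neither beyond the spread between rats (exact permutation, adjusted p = 0.534 for both). Each of these values rested largely on 1 rat: the difference was 0.0065 in healthy recipients without CD-HR1 and 0.095 in CKD recipients without CD-CR1. The summed CPM of Myh6 and Myh7 was 13301 ± 934 in the 12 healthy recipients and 11197 ± 1798 in the 11 CKD recipients; it was not tested.

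**Figure D3:**
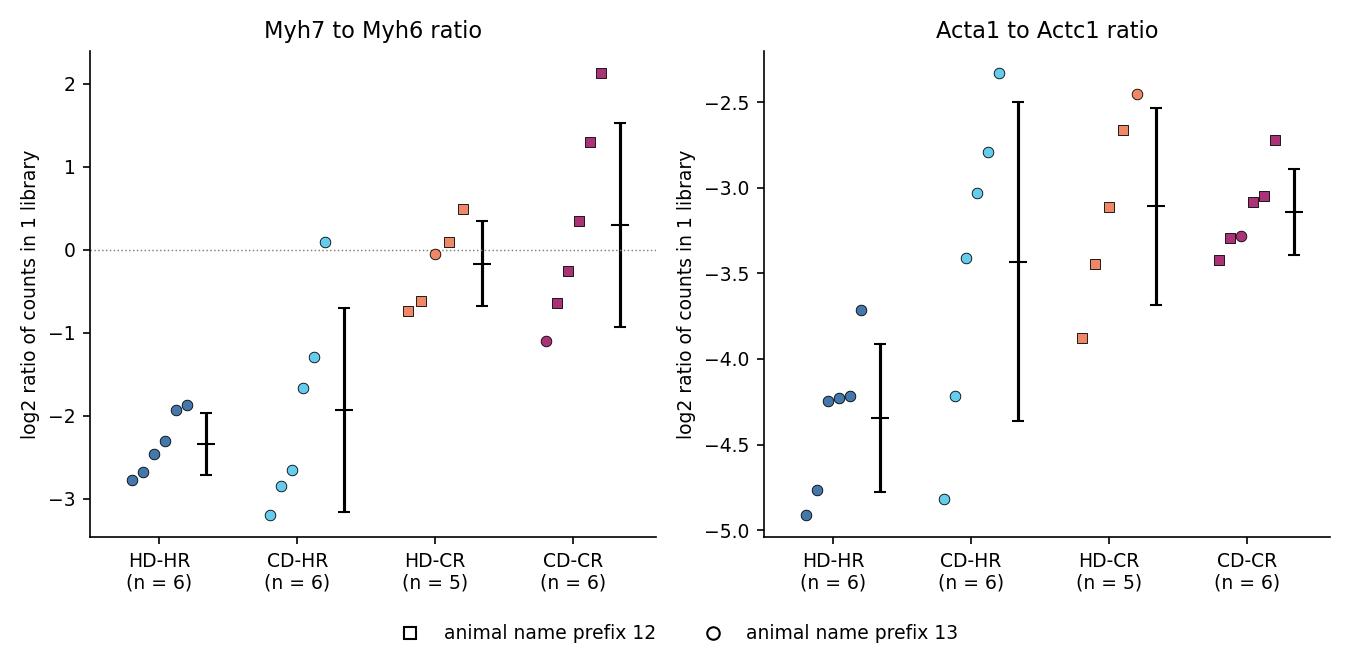
Log2 ratio of Myh7 to Myh6 counts and of Acta1 to Actc1 counts (vertical axes) in each rat by group, with mean ± SD; squares and circles are deposited names beginning with 12 and 13. The myosin ratio is higher in both CKD recipient groups, and CD-HR is widely spread in both panels.

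Acta1, the skeletal alpha-actin, was lowest in HD-HR and about equally high in the other 3 groups. HD-HR ran from 224 CPM through a median of 389 to 639 (392 ± 149, n = 6). CD-HR ran from 279 through 871 to 1997 (913 ± 610, n = 6), the widest range of any group. HD-CR had 478, 857, 780, 1137 and 1121 CPM (875 ± 272, n = 5), and CD-CR 745 at the lowest, 819 at the median and 1561 at the highest (958 ± 315, n = 6). All 6 CD-CR hearts, 4 of 5 HD-CR hearts and 4 of 6 CD-HR hearts were above every HD-HR heart. The means of CD-HR, HD-CR and CD-CR differed by less than their SDs.

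No Acta1 change passed the test over all genes. It was 0.61 ± 0.27 for recipient CKD (edgeR adjusted p = 0.126) and 0.68 ± 0.27 for donor CKD (unadjusted p = 0.0197, edgeR adjusted p = 0.283). The recipient change passed when CD-HR2, the rat with 1997 CPM, was left out (0.81, edgeR adjusted p = 0.0275). With all rats, 12.8% of genes were called for that comparison. By single comparisons, the log2 difference was 1.22 ± 0.37 for a CKD donor kidney in healthy recipients (edgeR adjusted p = 0.472), 1.16 for recipient CKD with a healthy donor kidney (0.138) and 1.29 for both against neither (0.057). The last passed by DESeq2 (adjusted p = 0.0171, 5.63% of genes called), by limma-voom (0.0289, 3.37% called), and by edgeR with only these groups (0.0165, 3.13% called) or without HD-HR2 (0.0385, 3.25% called). Against a CKD comparator it was small, 0.13 for donor CKD in CKD recipients (95% interval -0.67 to 0.93) and 0.07 for recipient CKD with a CKD donor kidney (-0.69 to 0.83). The donor by recipient interaction, which tests whether the effects add up, was -1.09 ± 0.53 (unadjusted p = 0.0529, edgeR adjusted p = 0.99998), and -0.70 without CD-HR2; 0.00864% of genes were called for it. For the comparisons by donor, 0% of genes were called in healthy recipients (7.6% had an unadjusted p under 0.05, DESeq2 called 7 genes and limma-voom 0) and 0.0259% in CKD recipients.

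Actc1, the cardiac alpha-actin, was similar in all groups. HD-HR ran from 6081 CPM through a median of 8116 to 8396 (7573 ± 1016), CD-HR from 6901 through 7697 to 10028 (8188 ± 1275), and CD-CR from 6154 through 8274 to 10282 (8253 ± 1459). HD-CR had 7017, 7398, 8498, 7191 and 6135 CPM (7248 ± 849). The change with recipient CKD was -0.03 with a 95% interval of -0.22 to 0.17 (edgeR adjusted p = 0.888), and that with donor CKD 0.15 with an interval of -0.05 to 0.35 (edgeR adjusted p = 0.541). Among the 100 most abundant genes, ranked by spread between rats of a group (biological coefficient of variation), Acta1 was 4, Myh7 8, Myh6 9 and Actc1 63. The values were 0.403, 0.338, 0.329 and 0.163, and the median of those 100 genes was 0.174.

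The Acta1 to Actc1 ratio, log2 of the counts, was -4.35 ± 0.43 in HD-HR (lowest -4.91, median -4.24, highest -3.72). It was -3.43 ± 0.93 in CD-HR (-4.82, -3.22 and -2.33) and -3.14 ± 0.25 in CD-CR (-3.42, -3.18 and -2.72). The HD-CR rats had -3.88, -3.11, -3.44, -2.66 and -2.45 (-3.11 ± 0.58). As a share of the summed counts of the pair, Acta1 made up 4.84 ± 1.37% in HD-HR, 9.55 ± 4.89% in CD-HR, 10.9 ± 3.72% in HD-CR and 10.3 ± 1.66% in CD-CR. The 3 groups with disease on either side thus had similar mean shares, with CD-HR the most scattered.

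In CKD recipients the log2 actin ratio was higher by 0.76 ± 0.25, averaged over donors (exact permutation p = 0.0103, adjusted over 14 tests 0.0240). Leaving out CD-HR6 moved it just past the threshold (0.69, adjusted p = 0.0505). The rise was 1.24 with a healthy donor kidney (exact permutation, adjusted p = 0.0182) and 0.29 with a CKD donor kidney (adjusted p = 0.534; 0.013 without CD-HR4 and 0.51 without CD-HR2), and the difference between them, -0.95, was not tested. Disease in both against neither gave 1.20 (exact permutation, adjusted p = 0.00758), with all 6 CD-CR rats above all 6 HD-HR rats. A CKD donor kidney in healthy recipients gave 0.92 (exact permutation p = 0.0541, adjusted 0.0947), which passed only without CD-HR4 (1.19, adjusted p = 0.0354). In CKD recipients the donor difference was -0.03 (adjusted p = 0.903). The summed CPM of the actins was 8533 ± 1510 in healthy and 8716 ± 1439 in CKD recipients.

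Hearts with a higher myosin ratio also had a higher actin ratio, and the groups differed in both. Over all 23 rats the log2 ratios correlated with Pearson's r = 0.716 (permutation p = 0.00017, adjusted over 2 relations 0.00018) and Spearman's rho = 0.720 (permutation p = 0.00016, adjusted 0.00032). After the group means were subtracted r was 0.611 (rho 0.675), given as a description with no test. Without CD-CR1 and CD-CR6, which were farthest from the median on the myosin axis, r was 0.774. Within the 12 healthy recipients r was 0.757 (permutation p = 0.0031), and within the 11 CKD recipients it was 0.367 (permutation p = 0.266, rho 0.582). The difference between these correlations was not tested. CD-HR carried much of the spread in healthy recipients: CD-HR4 was lowest in the group on both ratios. The levels of Myh7 and Acta1 behaved alike (log2 CPM, r = 0.707, permutation p = 0.00018, adjusted 0.00018; rho = 0.627, permutation p = 0.00174, adjusted 0.00174). With group means subtracted r was 0.622. Without CD-HR4 and CD-HR3 r was 0.760, and it was 0.684 in healthy and 0.317 in CKD recipients.

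**Figure D4:**
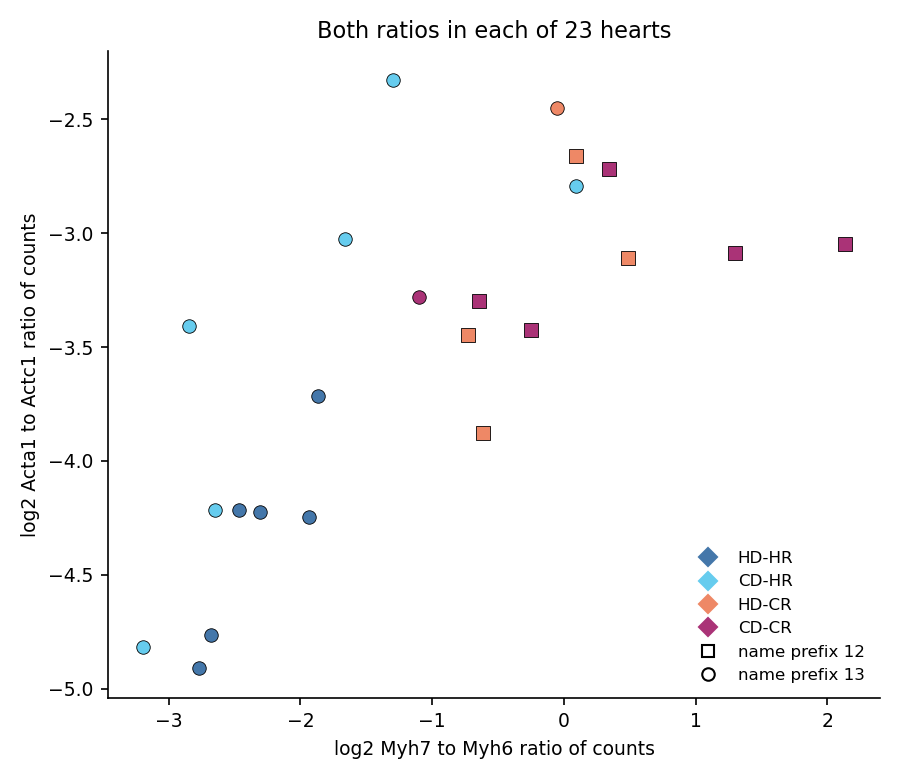
Log2 Acta1 to Actc1 count ratio (vertical axis) against log2 Myh7 to Myh6 count ratio (horizontal axis), 1 point per rat, with group and name prefix marked. The points rise from HD-HR at the lower left to the CKD recipients at the right (r = 0.716, n = 23), and the CD-HR rats run from -3.19 to 0.10 on the horizontal axis.

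Of the 11031 genes averaging 1 CPM or more, those whose log2 CPM over the 23 rats was most like that of Myh6 were ENSRNOG00000002653 (r = 0.966) and ENSRNOG00000006444 (r = 0.948). The former had 7.87 ± 2.47 CPM in healthy and 3.94 ± 1.94 CPM in CKD recipients. Most opposite were ENSRNOG00000016896 (r = -0.937) and ENSRNOG00000002981 (r = -0.932). The best positive match was r = 0.907 for Myh7, 0.903 for Acta1 and 0.833 for Actc1. Between the members themselves r was -0.77 for Myh6 and Myh7, 0.71 for Myh7 and Acta1, and 0.41 for Acta1 and Actc1. These are descriptions across rats of different groups and share library depth and scaling.

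Some properties of the libraries moved with the recipient groups. The names deposited for the rats begin with 12 in 9 of 11 CKD recipients and with 13 in the other 2 (HD-CR5 and CD-CR5) and in all 12 healthy recipients; the labels do not say what the prefix stands for. With the prefix as a term in the fit, the recipient changes were -0.70 for Myh6 (edgeR adjusted p = 0.346) and 0.66 for Myh7 (edgeR adjusted p = 0.325), so neither was called, and prefix and recipient can hardly be told apart. In the rats named 13, Myh7 was 3988 and 4297 CPM in the 2 CKD recipients and 1438 to 6839 in the healthy ones, and the myosin log2 ratio -1.10 and -0.05 against -3.19 to 0.10. Within prefix 12 the myosin and actin ratios correlated with r = 0.484 (n = 9) and within prefix 13 with r = 0.814 (n = 14); for the Myh7 and Acta1 levels r was 0.480 and 0.724. Non-unique alignments, where reads shared by near-identical myosin or actin copies would fall, numbered a median of 2.31 per counted read in healthy and 1.20 in CKD recipients. With that number as a term, the recipient changes were -1.08 for Myh6 (edgeR adjusted p = 0.0117) and 0.99 for Myh7 (0.0198). CD-CR1, the rat with the highest myosin ratio, also had the lowest share of counts in its 10 most abundant genes (48.8%). Without CD-CR1 and HD-CR2, whose share was the next lowest (51.3%), the recipient changes were -0.79 for Myh6 (edgeR adjusted p = 0.00612) and 0.97 for Myh7 (0.0138).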

How the data were processed

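RNA from the heart apex of 23 rats was enriched for polyadenylated RNA and made into directional libraries, per the labels' protocols. The deposited values are read counts per gene, whole numbers that the authors did not normalize, for 26405 Ensembl identifiers. Per the submitters' processing notes, the build was Rnor_5.0 and the tools were STAR 2.4.2a, HTSeq 0.6.1p1 and Picard. No label or header states the annotation release, the strand setting or the treatment of duplicates (not given in the sources used here). Reads shared by near-identical copies (the myosin pair, the actins, pseudogenes) may be lost among the non-unique alignments. Levels of single members carry that uncertainty. The 5 summary lines of each file entered neither library sizes nor the main tests. Of reads in genes, ambiguous or in no feature together, 10.6 to 21.5% were in no feature and 0.872 to 1.97% ambiguous. Libraries held 7391929 to 12444980 gene counts (median 9831294).

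Groups came from the sample titles. No 2 libraries of a group agreed within sampling noise (lowest chi-square per degree of freedom 8.38). Genes were filtered with filterByExpr (11568 kept), scaled by TMM and tested in 1 fit of all libraries with edgeR 4.0.16 in R 4.3.3 (quasi-likelihood, robust), with Benjamini-Hochberg adjustment over all genes tested and a threshold of 0.05. A standard error is the log2 fold change divided by the square root of F. Log2 CPM used a prior count of 2. Ratios were taken from counts with 0.5 added to both genes and compared by two-sided exact permutation tests over rats, adjusted over the 14 ratio tests. Correlations used 100000 permutations. The code was tested on simulated data.

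Alternatives were DESeq2 1.42.0, limma 3.58.1 (voom), total-count scaling, no filter, fits of the compared groups alone, a replicate block, the name prefix, 3 library measures as covariates, and leaving out each rat. The members, lists and tests were chosen with earlier results of these data known. The genes named are the 4 members and, by rule, those most like or unlike a member among those averaging 1 CPM or more, kept to 2 in each direction because the files hold no names. Other sarcomere and cell type lists could not be matched, since 0 rows of the reference gene table carry an Ensembl identifier, and 0 were tested.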

Additional observations from a re-analysis of the deposited data

Results flagged for a closer look

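In a check of 24 sets of values (each level and ratio in each group) for a single rat far from its group, 2 rats stood apart, where chance gives about 1 in 20 sets. HD-CR2 had 7441 CPM of Myh7, while the other 4 HD-CR rats had 4297 to 4994. The gap to its nearest neighbour was 0.778 of the range of the group. CD-CR2 had 1561 CPM of Acta1, while the other 5 CD-CR rats had 745 to 1045, and the gap was 0.633 of the range.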

How the results depend on the processing

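The averaged recipient rise of the myosin ratio and the averaged recipient changes of Myh6 and Myh7 kept their direction under every alternative run, and their calls under all but those on the name prefix. With the prefix as a covariate Myh6 gave -0.70 and Myh7 0.66. Among rats named 13 alone they gave -0.75 (edgeR adjusted p = 0.107) and 0.69 (0.450), the myosin ratio 1.55 and the actin ratio 1.02, where the averaged ratio test cannot give a p below 0.0204. The averaged recipient difference of the actin ratio was not past the threshold as a difference of medians (0.58), as a share of the pair (3.37 percentage points) or with the replicate block (0.77, adjusted p = 0.0729); without single rats it ran from 0.63 to 0.87. The averaged recipient change of Acta1 ran from 0.52 to 0.81 without single rats. Whether replicate numbers pair the rats was not settled. Of 33 same-numbered pairs, 12 had deviations correlated over 0.1 (median -0.04). A rat correlated best with its own number in 16 of 66 checks, and no chance level was computed for these counts. With the replicate block Myh7 gave 1.13 for recipient CKD, and 1336 genes were called in place of 1483. The blocked fit also called Myh7 with a healthy donor kidney (edgeR adjusted p = 0.0385, 0.717% of genes called). It called Myh7 with a CKD donor kidney (edgeR adjusted p = 0.0385, 1.62% called) and Acta1 for both against neither (0.0429, 3.66% called). Blocked ratio tests of single comparisons, which pair 5 or 6 rats, passed in 0 cases; the myosin ratio gave 2.25 with a healthy and 2.22 with a CKD donor kidney (adjusted p = 0.109 and 0.0729). Before adjustment such tests cannot give a p below 0.0625 with 5 pairs and 0.0312 with 6, so they say nothing about stability.

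Signs that turned belonged to differences that passed no test. Among rats named 13 alone, Myh6 gave 0.39 for donor CKD averaged and 0.91 in CKD recipients, Myh7 -0.14 in CKD recipients, the myosin ratio -0.32 averaged and -1.04 in CKD recipients, and Acta1 -0.53 in CKD recipients; for recipient CKD with a CKD donor kidney Acta1 gave -0.20 and Actc1 -0.084. Within prefix 12 the donor difference of the actin ratio in CKD recipients was 0.16. For recipient CKD with a CKD donor kidney, Acta1 gave -0.060 with non-unique alignments and -0.053 with the top-10 share (counts in the 10 most abundant genes) as covariate; Actc1 gave -0.13 and -0.017 with these, -0.030 with ambiguous reads, -0.16 with the prefix and -0.026 without TMM. For both against neither, Actc1 gave -0.048 with the prefix. With ambiguous reads as covariate, Myh6 gave 0.027 for donor CKD averaged and 0.10 in CKD recipients. Without CD-CR1 and HD-CR2, chosen after seeing the data, Myh6 gave 0.091 in CKD recipients, and Actc1 gave 0.014 for recipient CKD. The Myh6 interaction was -0.092 by limma-voom, -0.012 without TMM and -0.054 with the top-10 share. Without single rats, ranges that crossed 0 were -0.18 to 0.0023 (Myh6, donor averaged), -0.23 to 0.12 (Myh6, donor in CKD recipients), -0.10 to 0.24 (Myh6, interaction), -0.40 to 0.15 (Myh7, interaction), -0.064 to 0.24 (Acta1, donor in CKD recipients), -0.12 to 0.46 (Acta1, recipient with a CKD kidney), -0.062 to 0.021 (Actc1, recipient averaged), -0.061 to 0.085 (Actc1, recipient with a CKD kidney) and -0.22 to 0.13 (actin ratio, donor in CKD recipients). The causes were not tested.

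The number of genes called for recipient CKD was 1483, and 399 without TMM, 6 with the prefix as covariate, 0 among rats named 13, 900 without CD-HR4 and 860 without HD-CR4. With a healthy donor kidney the 71 calls moved by over 1.5 times without HD-CR5 (5), HD-CR4 (6), HD-HR4 (10), HD-HR3 (14), HD-HR2 (24), HD-HR5 (33), HD-CR3 (36) or HD-CR2 (47). With a CKD donor kidney the 181 did so without CD-HR4 (48), CD-CR1 (61), CD-CR2 (79), CD-HR5 (92), CD-HR6 (103), CD-CR4 (329) or CD-HR1 (359). The 422 calls for both against neither did so without HD-HR4 (250), CD-CR1 (258) or CD-CR6 (227), and became 0 with the prefix. For donor CKD averaged, DESeq2 called 226 genes where edgeR called 0.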
